A study of Mus musculus with 2 samples.

Results

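The insulin-like growth factor (IGF) system described here comprises 10 genes: the ligand gene Igf1, the receptor genes Igf1r and Insr, and the genes of the binding proteins Igfbp1 to Igfbp7. They were chosen by name from the gene tables, and all 10 were found among 43346 Ensembl genes, together with 28 transcripts. Polyadenylated RNA longer than 200 nucleotides was sequenced from whole urinary bladder of adult littermates of both sexes, strain C57BL/6J, aged 8 weeks, for which the labels name no treatment. There is 1 group with 2 libraries, labelled as biological replicates 1 and 2. Both libraries name the same donor entry and the number of animals in each is not given, so the SD measures only the spread between these libraries, which may be partly technical. There is no contrast between conditions, and no exact permutation test with 2 libraries can reach 0.05, so levels and shares are described without p-values.

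IGF1 is a small secreted hormone that resembles insulin. Liver cells make most of the circulating hormone under growth hormone, and connective tissue and muscle make it for local use. It acts on the IGF1 receptor, a tyrosine kinase related to the insulin receptor, and both signal through insulin receptor substrates, phosphoinositide 3-kinase and AKT. Secreted binding proteins hold IGFs in the blood and the extracellular matrix, and proteases release the hormone by cutting them.

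The splice forms of Igf1 and Insr turned on a few short exons, whose sequences are shown because the junction reads below count them. All are from GENCODE M21 transcripts on mm10 (GRCm38), written 5′ to 3′ on the strand of the gene, with bases outside the marked stretch in lower case. These belong to neighbouring exons, except in the last coding exon of Igf1 and after the optional bases of Insr, where they belong to the same exon. In the first line of Igf1 the capitals mark the 52-base alternative exon (chromosome 10, 87915298 to 87915349, plus strand), which gives the E-peptide form called Eb in rodents.
Igf1 alternative exon: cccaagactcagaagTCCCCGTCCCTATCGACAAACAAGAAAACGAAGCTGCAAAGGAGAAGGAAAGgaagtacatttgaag
In the next line, the coding part of the last exon (87930675 to 87930731), the capitals mark the 23 bases that are also coding when the 52-base exon is included, against 57 coding bases without it.
Igf1 last coding exon: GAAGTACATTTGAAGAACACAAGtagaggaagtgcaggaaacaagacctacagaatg
The 2 leader lines carry in capitals the coding bases of the alternative first coding exons (87859350 to 87859412 and 87861371 to 87861385), each followed by the start of the shared exon.
Igf1 upstream leader: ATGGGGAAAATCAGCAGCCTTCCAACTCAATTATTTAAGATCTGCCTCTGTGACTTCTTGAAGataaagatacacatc
Igf1 downstream leader: ATGACCGCACCTGCAataaagatacacatc
In Insr the capitals mark the 36-base alternative exon near the end of the alpha subunit (chromosome 8, 3181702 to 3181737, minus strand), and in the last line 3 optional bases at the start of a downstream exon (3167502 to 3167604).
Insr alternative exon: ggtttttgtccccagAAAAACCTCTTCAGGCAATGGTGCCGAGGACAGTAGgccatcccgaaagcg
Insr shifted acceptor: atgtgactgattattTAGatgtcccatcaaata

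Binding protein transcripts far outnumbered those of the ligand and the receptors. Levels are in TPM, a transcript abundance that adjusts for transcript length and the library total. Of the 10 genes, 9 reached 1 TPM in both libraries, and 32.7% of all Ensembl genes did so. The 7 binding protein genes summed to 2497 TPM in replicate 1 and 2260 TPM in replicate 2, which was 0.256% ± 0.0146 of all gene TPM (SD, n = 2). That sum was 95.9 ± 8.45 times the TPM of Igf1. The SD does not cover how fragments were assigned to Igf1 transcripts. Those with the downstream leader held 54.1% ± 3.38 of Igf1 TPM, but that leader had 8.85% of the junction reads into the first shared exon. Igfbp7 and Igfbp2 together made up 79.0% ± 0.359 of the binding protein TPM. In a bulk sample, fewer cells of a type and less RNA per cell cannot be told apart.

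**Figure D1:**
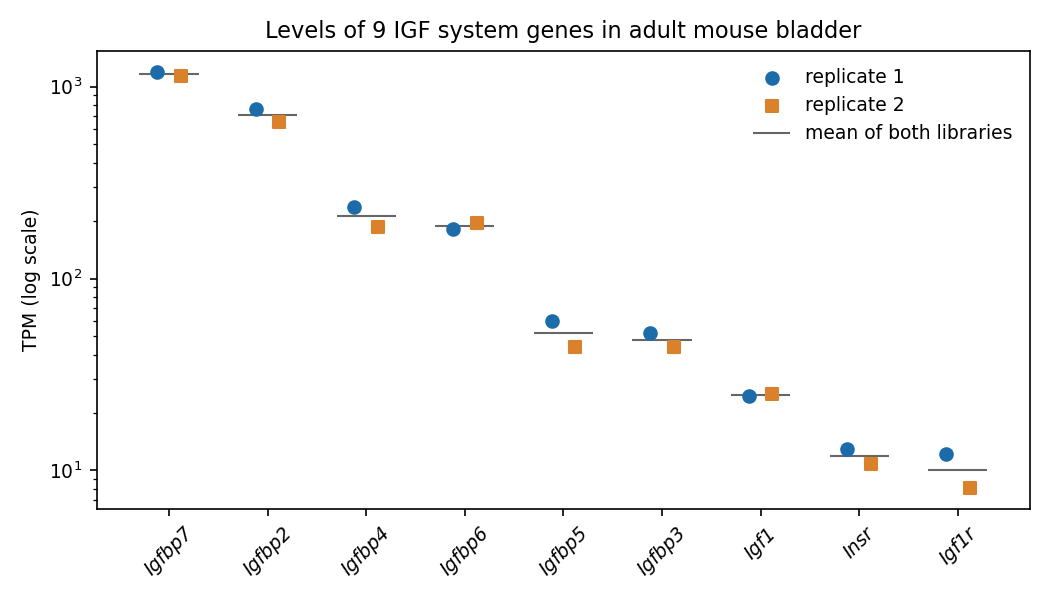
Level of 9 genes in each library, in TPM on a log axis, with replicate 1 as circles, replicate 2 as squares and the mean as a line; Igfbp1, at 0.01 and 0 TPM, is not drawn. Igfbp7 and Igfbp2 stand above the others in both libraries, while Igfbp4 and Igfbp6 swap places between them.

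Igfbp7 encodes a secreted protein of vessel walls and stroma that binds IGFs weakly. The gene (ENSMUSG00000036256.9, chromosome 5, 77349240 to 77408041, minus strand, mm10) had 1198 TPM in replicate 1 and 1133 TPM in replicate 2, a mean of 1165 ± 46.1 TPM. It ranked 100 among the 14533 genes that averaged 1 TPM or more. With 85029 and 87567 expected counts in replicates 1 and 2 (fragments assigned to the gene by estimation), it was also the member with most fragments.

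Igfbp2, the gene of a binding protein that also binds integrins through an RGD motif (ENSMUSG00000039323.14, chromosome 1, 72824503 to 72852474, plus strand), had 768 TPM in replicate 1 and 658 TPM in replicate 2. Its mean was 713 ± 77.9 TPM, rank 171, and neither library overlapped the range of Igfbp7 or of the next gene. Igfbp5, whose protein binds extracellular matrix, lies 5457 bases from it and faces it on the opposite strand (ENSMUSG00000026185.8, chromosome 1, 72857932 to 72874884). This neighbour had 59.8 TPM in replicate 1 and 44.1 TPM in replicate 2, a mean of 51.9 ± 11.1 TPM, so adjacent genes of the family differed widely in level.

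Igfbp4 encodes a binding protein that the protease PAPP-A cuts (ENSMUSG00000017493.8, chromosome 11, 99041244 to 99054392, plus strand). The gene had 237 TPM in replicate 1 and 186 TPM in replicate 2, a mean of 212 ± 36.4 TPM. Igfbp6, the gene of a binding protein with a preference for IGF2 (ENSMUSG00000023046.6, chromosome 15, 102144362 to 102149511, plus strand), had 182 TPM in replicate 1 and 195 TPM in replicate 2, a mean of 189 ± 9.35 TPM. Igfbp4 was higher in replicate 1 and Igfbp6 in replicate 2, so these neighbours in the order did not differ beyond their spread.

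Igfbp3, the gene of the main carrier of IGFs in serum (ENSMUSG00000020427.7, chromosome 11, 7206086 to 7213923, minus strand), had 51.7 TPM in replicate 1 and 43.8 TPM in replicate 2. Its range overlapped that of Igfbp5, although Igfbp5 was the higher of the pair in both libraries. Igfbp1 lies 3539 bases away on the opposite strand (ENSMUSG00000020429.7, chromosome 11, 7197782 to 7202546), and its product is made mainly by liver under the control of insulin. It had 1 expected count in replicate 1 and 0 in replicate 2, and a count of 0 in replicate 2 allows up to 0.0286 CPM (expected counts scaled to the gene total; 3 counts, counting error only). No read crossed any of the 3 annotated Igfbp1 introns. Igfbp1 was thus not detectable at this depth beside a neighbour with 8597 and 7951 counts in replicates 1 and 2.

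Igf1 (ENSMUSG00000020053.14, chromosome 10, 87858265 to 87937042, plus strand) had 24.5 TPM in replicate 1 and 25.1 TPM in replicate 2, a mean of 24.8 ± 0.438 TPM. It was the member with the closest agreement in TPM between libraries among the 9 detected, relative to its level, and 66.2% of genes averaging 1 TPM or more lay below it. With counts scaled by TMM factors that place went to Igfbp6, at a log2 ratio of replicate 1 over replicate 2 of -0.02, and Igf1 stood at -0.16. Its expected counts were 5944 in replicate 1 and 7658 in replicate 2.

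The receptor genes were the lowest of the 9. Insr (ENSMUSG00000005534.9, chromosome 8, 3122061 to 3279617, minus strand) had 13.0 TPM in replicate 1 and 10.8 TPM in replicate 2. Igf1r (ENSMUSG00000005533.9, chromosome 7, 67952827 to 68233668, plus strand) had 12.1 TPM in replicate 1 and 8.06 TPM in replicate 2. The log2 ratio of Igf1r over Insr was -0.25 ± 0.21, with a pseudocount of 0.5 TPM as in all log2 ratios here, and the ranges of the receptors overlapped. The deposited Igf1r model was 4489 bases long, against 11409 bases for the same transcript in GENCODE M21, so fragments from the rest of the longer model were not part of the Igf1r value. Insr had 9355 bases in both.

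Within the family the distances were large. Igfbp7 exceeded Igfbp3 by a log2 ratio of 4.60 ± 0.11, and Igfbp5 lay below Igfbp4 by -2.02 ± 0.06. Expected counts gave a different order, because they are not adjusted for length: Igfbp5, with a transcript of 6006 bases, had 238 CPM on average and came before Igfbp6, which had 136 CPM and a transcript of 1112 bases. In the older mm9 values of the series (RPKM, a read density adjusted for length, as the mean of 2 values) all 10 genes took the same places as in TPM.

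Among the 9 detected genes, Igf1r differed most between the libraries. Ratios are replicate 1 over replicate 2. Its log2 ratio was 0.56, followed by Igfbp5 at 0.44, Igfbp4 at 0.35 and Insr at 0.26. Igfbp6 stood at -0.10 and Igf1 at -0.04. On this log2(TPM + 0.5) scale 0 of the 9 detected genes reached 1.5-fold, a distance that 8.52% of genes averaging 1 TPM or more reached, and 0 reached 2-fold, against 1.58% of genes. Igf1r lay at the 1.5-fold line: it passed it without the pseudocount, at a log2 ratio of 0.59, and with counts scaled by edgeR's TMM factors, at 0.64. The median was 0.24 over the 9 genes and -0.08 over all 14533 genes.

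**Figure D2:**
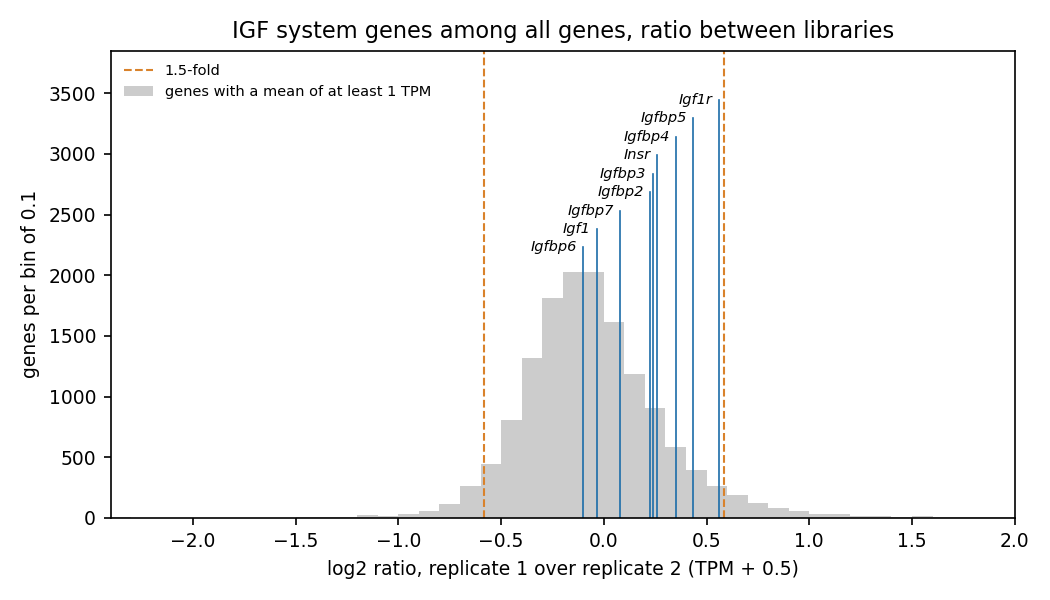
Log2 ratio of replicate 1 over replicate 2 (TPM + 0.5) for 9 IGF system genes, drawn as lines over the distribution of genes averaging 1 TPM or more (gray bars, genes per bin). The lines run between -0.10 for Igfbp6 and 0.56 for Igf1r, all inside the dashed lines at 1.5-fold; line heights only separate the names.

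Cell type markers placed the tissue, and some of them differed between the libraries. All 5 uroplakin genes of the superficial urothelium, all 5 smooth muscle genes and all 5 fibroblast genes were detected. The uroplakins summed to 3887 TPM in replicate 1 and 5554 TPM in replicate 2, whereas the 3 basal urothelium markers summed to 876 and 875 TPM. The 5 adipocyte markers summed to 933 TPM in replicate 1 and 1849 TPM in replicate 2. Smooth muscle markers summed to 25580 and 23660 TPM in replicates 1 and 2, and fibroblast markers to 5197 and 5091 TPM. The smooth muscle and fibroblast sums hide genes that did not move together. Log2 ratios of replicate 1 over replicate 2 ran from 0.01 for Tagln to 0.85 for Myh11 in smooth muscle. Of the fibroblast genes, Pdgfra, Col1a1 and Col3a1 stood at 0.59, 0.58 and 0.17, and Dcn and Lum at -0.18 and -0.42. The endothelial genes Cdh5, Pecam1 and Egfl7 stood at 0.75, 0.36 and -0.53. Of the 4 hepatocyte markers, Ttr had 24.4 and 28.3 TPM in replicates 1 and 2, whereas Alb had 3.37 and 0.71 TPM, Apoa1 0.61 and 0.39 TPM, and Serpina1a 0.20 and 0.02 TPM. The part of tissue makeup in the ratios of the IGF genes was not tested. Totals of 99367453 expected counts in replicate 1 and 105057347 in replicate 2 lay on genes.

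Igf1 transcripts differed in their leader and E-peptide exons, and widely in total length. Igf1-202, with the upstream leader and no 52-base exon, held 40.8% of Igf1 TPM in replicate 1 and 48.2% in replicate 2. Igf1-206, with the downstream leader and the 52-base exon, held 34.9% and 29.3% in replicates 1 and 2, and Igf1-205, with the downstream leader and no 52-base exon, 19.5% and 12.9%. In fragments the picture was another: Igf1-202 took 88.8% of the gene's expected counts in replicate 1 and 92.1% in replicate 2. The models differ in length, with 7052 bases for Igf1-202, 651 for Igf1-206 and 798 for Igf1-205. Igf1-202 by itself had 10 TPM in replicate 1 and 12.1 TPM in replicate 2, a level close to that of the receptors.

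Splice junction reads, deposited as sums over both libraries on mm9, gave a second view of the same exons. Of 599 reads that joined a leader to the first shared exon, 503 came from the upstream leader, which is 84.0% (exact 95% interval 80.8 to 86.8). The downstream leader gave 53 reads, or 8.85% (6.70 to 11.4), and 7 other donors the remaining 43. The exon of the downstream leader was itself joined to sequence upstream of it, by 12 reads at an annotated junction and 17 at an unannotated one. Its reads thus need not all come from transcripts that start in it. Transcripts with the upstream leader held 45.9% ± 3.38 of Igf1 TPM and those with the downstream leader 54.1% ± 3.38, so the TPM shares and the junction reads ordered the leaders differently. In expected counts the upstream leader transcripts held 90.1% in replicate 1 and 92.2% in replicate 2, the order of the junction reads. Expected counts are not adjusted for length, and Igf1-202 has 7052 bases, against 651 for Igf1-206 and 798 for Igf1-205. The count shares therefore do not decide which leader was used more. Intervals cover counting error only, since pooled reads have no replicate value.

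The 52-base exon of Igf1 was joined by 167 reads upstream and 184 downstream, and 575 reads skipped it. With the 2 inclusion junctions averaged, as for all exons here, inclusion was 23.4% (exact 95% interval 20.5 to 26.7), against 36.5% ± 1.67 of TPM in the 3 transcripts that carry the exon. The same transcripts held 6.30% of the gene's expected counts in replicate 1 and 4.09% in replicate 2, so the junction value lay between the TPM share and the count share. The exon leaves a remainder of 1 base when divided by 3, so its inclusion changes the reading frame of the last exon shown above.

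**Figure D3:**
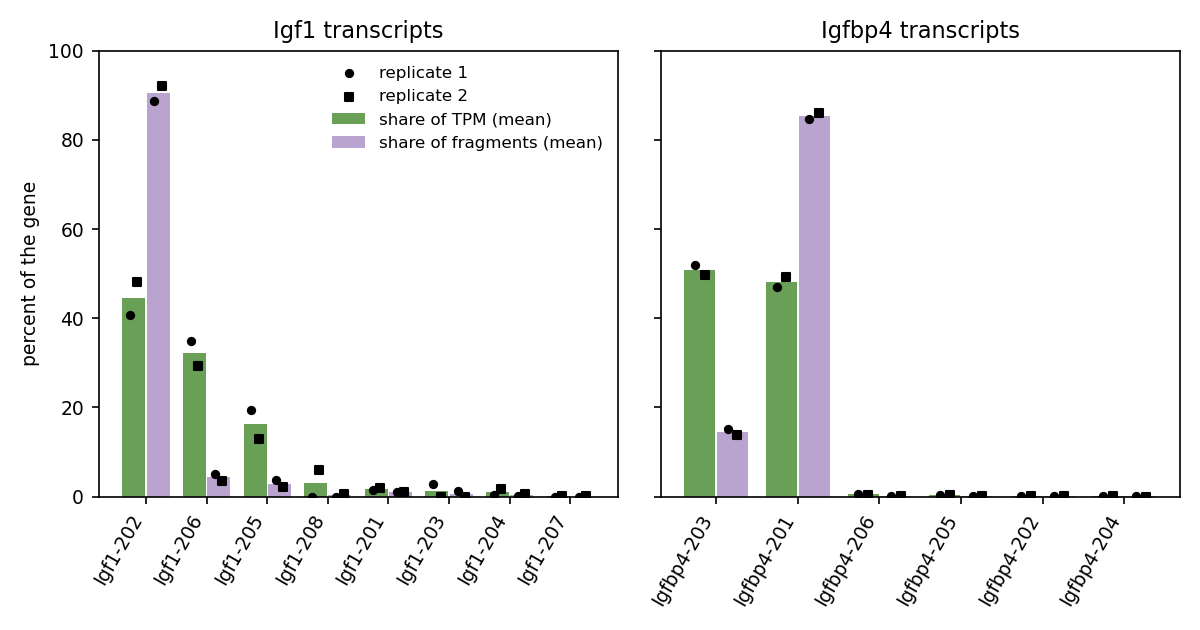
Share of each Igf1 and Igfbp4 transcript in its gene, as percent of TPM (green) and percent of expected fragments (violet); bars are means of both libraries, circles replicate 1 and squares replicate 2. Igf1-202 and Igfbp4-201 hold 90.5% and 85.4% of fragments but 44.5% and 48.2% of TPM.

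Insr, the insulin receptor gene, is known for 2 forms: without the 36-base exon (form A), which binds IGF2 with high affinity, and with it (form B), which is typical of liver. In bladder, 73 reads joined the exon on its upstream side and 73 on its downstream side, and 131 reads skipped it. Inclusion was 35.8% (exact 95% interval 29.2 to 42.8), taking the mean of the 2 inclusion junctions, and the skipping reads, which are of form A, outnumbered the reads at either side of the exon. The mm10 tables list Insr-201 and Insr-202 for this gene, and neither holds the exon, so the transcript values do not separate the forms. Insr-201 held 99.4% ± 0.511 of Insr TPM.

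A further Insr choice was a shift of 3 bases at the start of a 103-base exon. The annotated acceptor had 114 reads and the shifted one 32 reads, so 21.9% (exact 95% interval 15.5 to 29.5) of these reads left out the 3 bases marked above. The shifted junction is not in the Ensembl 65 models of the deposited mm9 exon table.

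Igf1r held a possible exon outside the annotation. A stretch of 93 bases (mm9, chromosome 7, 75353799 to 75353891) was joined by 24 reads upstream and 35 downstream, against 184 reads that skipped it, an inclusion of 13.8% (exact 95% interval 9.66 to 19.4). Its length is a multiple of 3. No Ensembl 65 model of Igf1r holds these bases as an exon, and none of the 6 Igf1r models of M21 has an exon of this length. Of 21 annotated Igf1r introns, 20 had at least 1 read.

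In Igfbp4 the TPM shares and the junctions again gave different pictures. Igfbp4-203, annotated as a processed transcript without a coding region, held 51.9% of Igfbp4 TPM in replicate 1 and 49.7% in replicate 2. Igfbp4-201, the coding transcript of 3831 bases, held 47.0% in replicate 1 and 49.3% in replicate 2. Yet of 6539 reads that entered the exon both share, 6442 came from the first exon of Igfbp4-201 and 5 from that of Igfbp4-203, or 98.5% and 0.0765%. The annotated first exon of Igfbp4-203 is 28 bases long, against 602 for Igfbp4-201, which leaves less room for reads across its junction. The junction shares are thus not shares of the transcripts. Igfbp4-201 by itself had 112 TPM in replicate 1 and 91.7 TPM in replicate 2, below Igfbp6 in each library. With Igfbp4-203 included the gene was above Igfbp6 in mean TPM, and it was also above Igfbp6 in the mm9 RPKM (38.2, against 26.2 for Igfbp6). Its CPM were higher too (341, against 136 for Igfbp6), but CPM are not adjusted for length. The Igfbp6 transcript has 1112 bases, so the CPM do not rank these 2 genes by level.

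The other binding protein genes were close to a single form. The leading transcript held 99.5% of TPM in Igfbp7, 99.4% in Igfbp5, 97.5% in Igfbp2 and 90.3% in Igfbp3, with SDs of 0.0131, 0.0839, 0.251 and 1.23 percentage points. In Igfbp7 an annotated 93-base exon was included in 0.288% of reads (exact 95% interval 0.233 to 0.353), with 32495 reads skipping it. An unannotated Igfbp7 junction (mm9, chromosome 5, 77778526 to 77780254) had 969 reads. It lay within a few bases, at both ends, of an annotated junction with 28086 reads. Junctions outside the annotation took between 0.777% of the junction reads in Igfbp6 and 4.16% in Igf1.

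**Figure D4:**
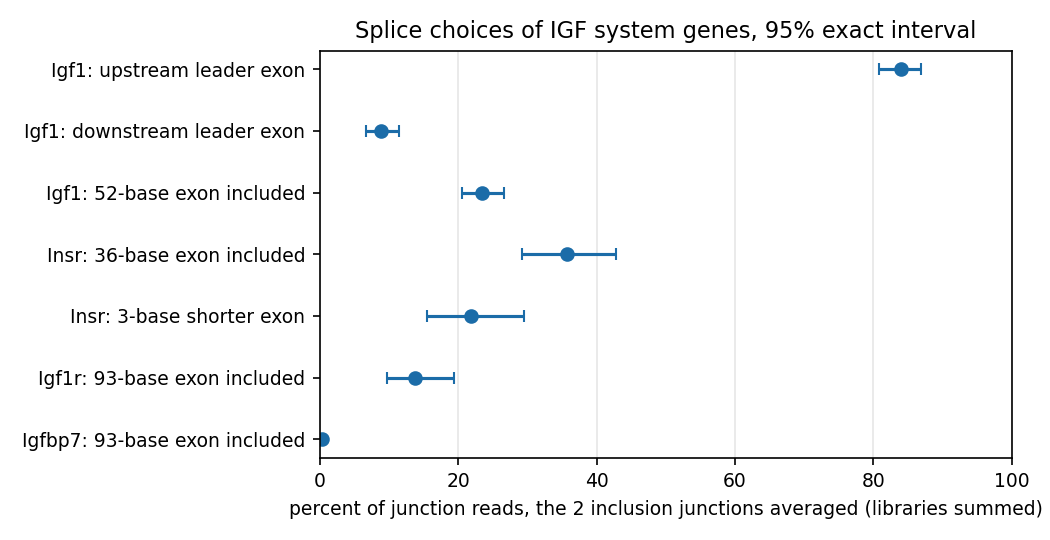
Percent of junction reads, both libraries summed, that use each splice choice, with exact 95% binomial intervals for counting error. The upstream Igf1 leader stands at 84.0%, while the 36-base Insr exon (35.8%) and the 52-base Igf1 exon (23.4%) both have more skipping reads than reads at either of their inclusion junctions, whose mean is used.

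Most other genes of the IGF pathway were present. Of 46 listed genes kept here, 35 reached 1 TPM in both libraries, beside 32.7% of all Ensembl genes. Among ligands and carriers, Igf2, the fetal growth factor, had 15.2 TPM in replicate 1 and 8.88 TPM in replicate 2. Igf1 exceeded Igf2 by a log2 ratio of 1.06 ± 0.55, although Igf1-202 by itself lay below Igf2 in replicate 1 and above it in replicate 2. Igf2r, whose product clears IGF2, had 36.2 and 26.6 TPM in replicates 1 and 2. Igfals, the acid-labile subunit of the serum complex, had 0.68 and 1.32 TPM in replicates 1 and 2. The insulin genes Ins1 and Ins2 had at most 1 count in a library. Insrr, the orphan relative of the receptors, had 0.56 and 0.54 TPM in replicates 1 and 2.

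Of the 6 genes for proteases of binding proteins and their inhibitors, 4 were detected. Htra1, a secreted serine protease, led with 193 TPM in replicate 1, against 139 TPM in replicate 2. Adamts1, a metalloprotease, averaged 22.0 ± 3.03 TPM. The stanniocalcins Stc1 and Stc2, inhibitors of PAPP-A, averaged 11.4 ± 1.80 and 20.7 ± 1.01 TPM, whereas in replicates 1 and 2 Pappa itself had 1.27 and 0.95 TPM and Pappa2 0.64 and 0.31 TPM.

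Of 9 genes for adaptors that link the receptors to the kinases, 7 were detected, and Irs1 (5.17 ± 0.283 TPM) and Irs2 (5.44 ± 1.93 TPM) were the lowest of these. Shc1 averaged 63.0 ± 4.26 TPM, Grb2 43.2 ± 0.537 TPM and Gab1 18.7 ± 1.15 TPM. Grb14 (48.0 ± 5.51 TPM) and Grb10 (28.2 ± 0.714 TPM), which restrain these receptors, were each above Insr and Igf1r in both libraries. In replicates 1 and 2, Irs3 had 0.82 and 1.02 TPM and Irs4 0.02 and 0 TPM.

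All 8 kinase and effector genes were detected. Akt1 averaged 109 ± 5.12 TPM and Akt2 63.3 ± 6.07 TPM, the same order in both libraries. The kinase subunits Pik3r1 and Pik3ca averaged 29.1 ± 8.19 and 18.1 ± 0.820 TPM. Pdpk1 averaged 14.9 ± 0.417 TPM, Mtor 12.8 ± 1.52 TPM, and the transcription factors Foxo3 and Foxo1 13.9 ± 3.92 and 7.43 ± 1.77 TPM.

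Growth hormone axis genes were detected in 5 of 5 cases. The receptor gene Ghr had 32.9 TPM in replicate 1 and 34.3 TPM in replicate 2. Its kinase gene Jak2 averaged 25.9 ± 1.15 TPM. The transcription factors Stat5b and Stat5a averaged 14.3 ± 1.03 and 7.38 ± 0.877 TPM, and Socs2, a feedback inhibitor, 10.6 ± 1.62 TPM. Of the genes for proteins that bind Igf2 mRNA, Igf2bp2 averaged 2.80 ± 1.14 TPM and Igf2bp3 1.11 ± 0.00707 TPM, and Igf2bp1 had 0.28 and 0.24 TPM in replicates 1 and 2.

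Among 9 further genes whose products carry an IGF binding domain, 7 were detected. Cyr61 averaged 61.8 ± 6.94 TPM and Kazald1 18.1 ± 1.05 TPM. Wisp2, Nov, Wisp1 and Esm1 averaged 7.44 ± 1.44, 5.03 ± 0.460, 2.47 ± 0.247 and 1.87 ± 0.148 TPM. Ctgf, a matricellular gene, had 35.9 TPM in replicate 1 and 86.7 TPM in replicate 2, a log2 ratio of -1.26. Of the 37 pathway genes averaging 1 TPM or more, Ctgf was the 1 past 2-fold (2.70%, beside 1.58% of all genes). Past 1.5-fold, a distance reached by 8.52% of all genes at that level, were 3 genes higher in replicate 1 (Igf2, Irs2 and Igf2bp2) and 2 higher in replicate 2 (Ctgf and Igfals).

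**Figure D5:**
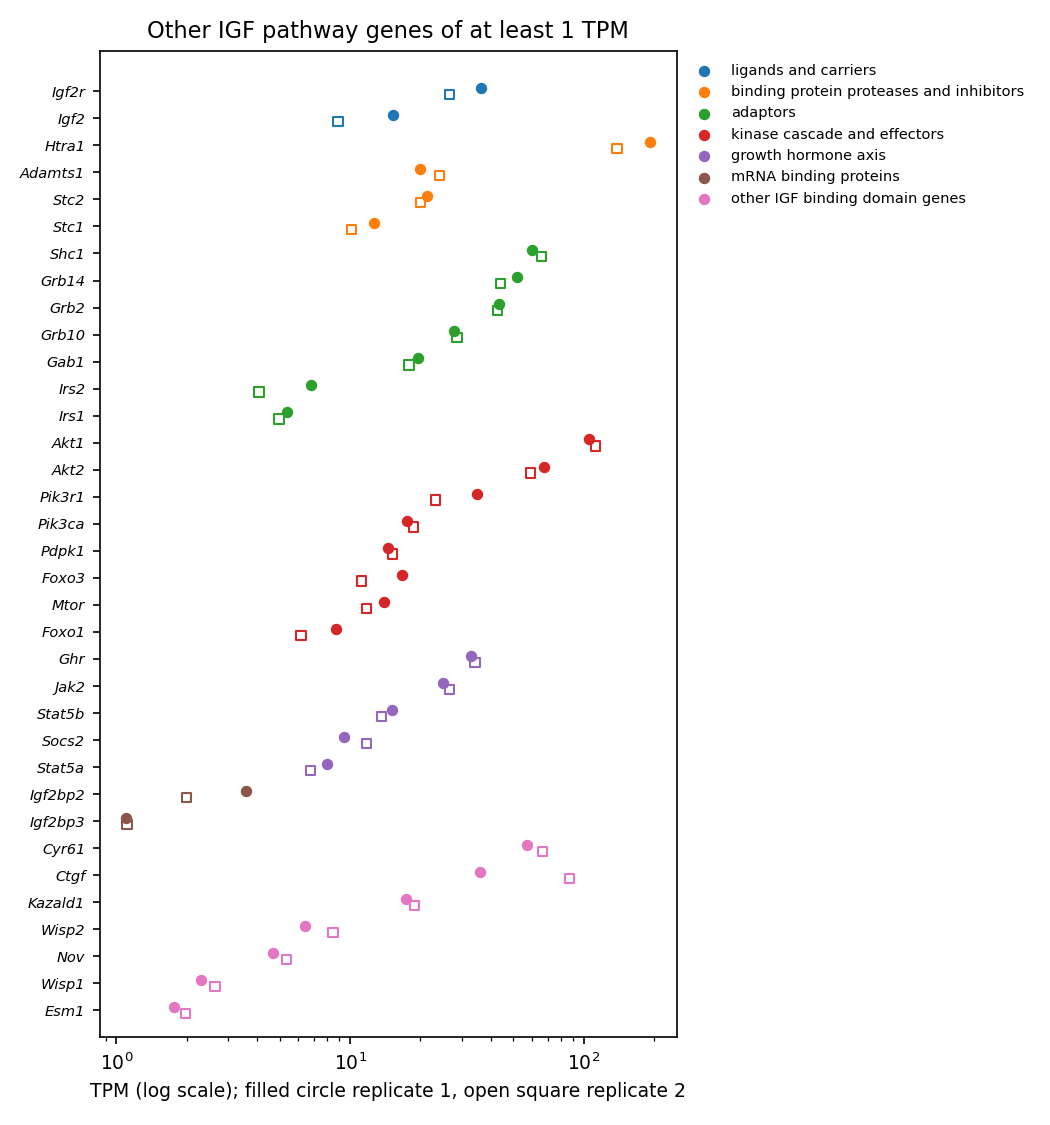
TPM on a log axis of the 35 pathway genes detected in both libraries, grouped by role, with replicate 1 as filled circles and replicate 2 as open squares. Htra1 and Akt1 lie highest, above 100 TPM in both libraries, and Ctgf shows the widest gap between libraries.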

How the data were processed

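The members and gene lists were chosen with earlier results of these data known, and the rules for junction choices were set after the data were seen. The authors deposited 1 gene and 1 transcript table per library on mm10 with annotation M4, per the notes deposited beside each table; which aligner and counting tool made them is not given in the sources used here. Per the file headers, the authors' values are expected counts, TPM scaled over all rows, the posterior mean TPM (a score here), interval bounds of TPM (a signal value, not printed) and the isoform percent. Per the file headers, the deposited mm9 tables hold RPKM, Ensembl 65 exons and junction read counts summed over the libraries. No label ties the 2 mm9 values to a library. Rows that are not Ensembl genes (5.01% and 5.98% of expected counts) were left out. Of 43346 identifiers, 42462 matched a symbol. Named were all members, pathway genes of at least 1 TPM, the other pathway genes, and transcripts averaging 10% or more of their gene.

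Library ratios used log2(TPM + 0.5), which understates ratios of low genes. A cassette exon needed 10 reads on each of 3 junctions and at most 400 bases, and a shifted site lay within 30 bases of an annotated one. Intervals are Clopper-Pearson. The ratio rule was run on simulated counts with counting error and no other spread between libraries, so that run gives no error rate for these libraries. Positions and exon sequences come from GENCODE M21 transcripts, read by exon offset. Some pathway genes of the planned lists are not reported here and were left out of the counts. A planned description of protein features was not made, as no protein table was at hand. Python 3.11.15, numpy 2.4.6, pandas 2.3.3, scipy 1.17.1 and matplotlib 3.10.9 were used. Expected counts were rounded for the factors of edgeR 4.0.16 and DESeq2 1.42.0 in R 4.3.3, which served as alternatives only, beside other detection levels, pseudocounts, filters, estimates and the removal of each library.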

Additional observations from a re-analysis of the deposited data

Results flagged for a closer look

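Inside the Igf1r gene, 19 reads crossed a junction on the opposite strand (mm9, chromosome 7, 75294754 to 75295758, last and first exon bases). It belongs to no comparison above. Only junctions of at least 10 reads were listed, so that it lies above the 3 reads that a count of 0 allows was set in advance. There are no control samples to set it against.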

How the results depend on the processing

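No paired analysis was possible because there is 1 group. The 9 members detected at 1 TPM were also 9 at 0.5 and at 5 TPM. For the ratio between libraries, 0 members were past 1.5-fold by log2(TPM + 0.5) and 1, Igf1r, by TPM without a pseudocount (log2 0.59, an alternative chosen after seeing the data), by edgeR's TMM (0.64) and by DESeq2 size factors (0.65). These count scalings also differ from TPM in what the pseudocount is added to. Without a pseudocount, 352 in place of 230 genes were past 2-fold. No member passed 2-fold under any setting run. Over all genes, a minimum mean of 5 TPM in place of 1 TPM left 803 in place of 1238 genes past 1.5-fold and 132 in place of 230 past 2-fold, with fewer genes considered. From the mm9 RPKM, the log2 ratio of Igfbp5 over Igfbp4 was -1.95 and that of Igfbp7 over Igfbp3 4.21; the cause was not tested. Using a single library, Igf1r over Insr ran between -0.40 and -0.10 and Igf1 over Igf2 between 0.67 and 1.45. Counting only junctions of at least 10 reads, the upstream Igf1 leader had 86.9%, with fewer donors counted, just above its interval of 80.8 to 86.8. Removing mitochondrial genes before scaling raised the TPM of every member except Igfbp1 by more than its SD (Igfbp7 to 1496 TPM). In CPM, which are not adjusted for length, 5 members changed place. The inclusion of the Insr and Igf1 exons stayed within its interval with either junction alone. The posterior mean TPM moved no transcript share printed by more than 1 SD. With 2 libraries the spread is poorly known, and the numbers of junction reads limit the splice values.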
